A study of Homo sapiens with 6 samples.

Results

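Hedgehog proteins are secreted signals that pattern the embryo, and in the somites they act on the precursors of skeletal muscle. Without ligand, the receptor PTCH1 holds the membrane protein SMO inactive, and the GLI transcription factors are kept in check by SUFU and processed into repressors at the primary cilium. Ligand binding, helped by the co-receptors CDON, BOC and GAS1, frees SMO and lets GLI2 and GLI3 act as activators. GLI1 and PTCH1 are themselves switched on by GLI proteins, and their mRNA is commonly read as a sign of pathway activity. The pathway has long been studied in rhabdomyosarcoma, a tumor with features of skeletal muscle.

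The 9 genes described here are the receptor PTCH1, the co-receptors CDON, BOC and GAS1, the transducer SMO, the inhibitor SUFU and the transcription factors GLI1, GLI2 and GLI3. They were taken by gene symbol, and each matched 1 of the 58735 rows of the count table. All 9 passed the filter on low counts and belong to the 15935 genes tested. RD is an established human cell line of embryonal rhabdomyosarcoma (ERMS). The control cultures (n = 3) were transduced with lentiviral particles carrying scrambled shRNA, and the knockdown cultures (n = 3) with particles carrying TAK1 shRNA, which targets MAP3K7, the gene of the kinase TAK1. A single TAK1 shRNA and a single cell line were sequenced, so that what the loss of TAK1 does and what the construct does by itself cannot be told apart. All cultures shared the same lentiviral treatment, and no untransduced cells were sequenced here. The comparison asks which of these genes differ in mRNA level after TAK1 knockdown.

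The 6 libraries held 28839898 to 34469323 counts on genes, all replicates of a group differed by more than sampling noise, and the first principal component (45.5% of the variance) separated the groups. MAP3K7 fell from 77.3 ± 0.743 to 31.3 ± 2.00 CPM (SD, n = 3), or by 1.30 on the log2 scale, where CPM is the count scaled to a normalized library size. The myogenic markers MYOD1, MYOG, DES and PAX7 were all present, whereas MYF5 was at 0 counts in all 6 libraries. The summed level of the 10 myogenic markers was 2460 to 2493 CPM in control and 2377 to 2482 CPM in knockdown cultures. This sum mixes opposite changes. Of the 8 tested, 2 were called higher, MYOD1 (log2 fold change 0.37) and MYOG (0.27), against 11.8% of all genes tested. CHRNA1 was the 1 called lower (-0.40, from 921 to 700 CPM), against 11.3%. Not called were MYH3 (0.24), CDH15 (0.23), PAX7 (0.14), DES (0.089) and NCAM1 (-0.11). Leukocyte markers summed to at most 0.453 CPM and endothelial markers to at most 3.65 CPM. The 6 epithelial markers summed to 56.4 to 62.8 CPM in control and 27.7 to 31.1 CPM in knockdown cultures, mostly from KRT18. Of the 2 tested, 1 was called lower, KRT18 (log2 fold change -1.09, from 56.1 to 26.4 CPM), against 11.3% of all genes tested. KRT8 (-0.48) was not called. EPCAM held 2 to 15 counts per library and KRT5 at most 1, and CDH1 and KRT19 were at 0 in every library. The 6 fibroblast markers, all of them tested, summed to 606 to 636 CPM in control and 607 to 702 CPM in knockdown cultures, and 0 of them were called. In a bulk library, fewer cells expressing a gene and less RNA per cell cannot be told apart.

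To be called, a gene needed an adjusted p below 0.05 (edgeR, quasi-likelihood, Benjamini-Hochberg over the whole table) and a log2 fold change, TAK1 shRNA over scrambled shRNA, of 0.25 or more in size. By this rule GLI2 and GLI3 were higher in TAK1 knockdown cells and CDON was lower, and the other 6 members were not called. Thus 2 of 9 members were called higher, against 11.8% of all genes tested, and 1 of 9 was called lower, against 11.3%. With 9 genes, these counts lie close to the background. The CPM values of the groups did not overlap for 3 members that were higher (GLI2, GLI3 and SUFU), against 21.6% of all genes tested, and for 3 that were lower (PTCH1, CDON and BOC), against 22.2%. The median log2 fold change was 0.086 for the 9 members and 0.018 for all genes tested. The median of the 9 is the value of GLI1, whose direction these libraries do not set.

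Promoter sequences of 7 of the 9 members were found in RefSeq (build GRCh38.p14), as 15 windows running from 250 bases before to 50 bases after an annotated start. GLI1 and GLI3 had no entry. Searched on both strands, the GLI binding motif GACCACCCA occurred in 1 of these windows, at PTCH1, and in 83 of all 35116 windows (0.236%). The AP-1 motif TGACTCA, bound by FOS and JUN proteins, was searched because TAK1 is known to act upstream of JNK and AP-1. It occurred in 2 member windows, at GLI2 and BOC, and in 4.95% of all windows. The PTCH1 window is shown because it belongs to the receptor that reads out the pathway, and the GLI2 window because GLI2 had the largest change of the 9. Both are written 5′ to 3′ on the strand of the gene, and the capitals mark the match, which in both cases is the reverse complement of the motif as spelled above. In PTCH1 (chr9:95509217-95509516, minus strand) it begins 172 bases before the start, which is 1 of the 5 starts given for PTCH1 and lies inside the gene, downstream of its outermost start, and in GLI2 (chr2:120792031-120792330, plus strand) it begins 170 bases before the start, which is the more downstream of the 2 starts given for GLI2. The counts are summed per gene and do not tell which start was used, and a match in a window does not show that a factor binds there.
PTCH1: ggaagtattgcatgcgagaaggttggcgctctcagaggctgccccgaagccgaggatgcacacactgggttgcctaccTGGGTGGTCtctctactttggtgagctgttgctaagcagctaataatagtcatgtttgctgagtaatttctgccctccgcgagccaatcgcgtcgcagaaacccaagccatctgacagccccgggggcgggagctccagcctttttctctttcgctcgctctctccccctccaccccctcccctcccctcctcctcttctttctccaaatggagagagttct
GLI2: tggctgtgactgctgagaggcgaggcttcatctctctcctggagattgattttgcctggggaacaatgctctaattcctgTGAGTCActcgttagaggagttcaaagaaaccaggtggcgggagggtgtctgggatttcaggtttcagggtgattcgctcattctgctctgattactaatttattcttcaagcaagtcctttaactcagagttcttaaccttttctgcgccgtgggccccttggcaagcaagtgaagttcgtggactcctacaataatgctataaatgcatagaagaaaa

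Among the GLI transcription factors, GLI2 and GLI3 were higher after TAK1 knockdown and GLI1 was not called. GLI2, the main activator of the pathway, lies on chromosome 2 from 120735623 to 120992653 in GRCh38 (ENSG00000074047.22). Replicates 1, 2 and 3 reached 37.3, 37.0 and 38.0 CPM among the controls, against 66.6, 54.3 and 57.7 CPM after knockdown. The control values lay within 1 CPM of each other, and the lowest knockdown culture was well above the highest control. GLI2 rose from 37.4 ± 0.491 to 59.5 ± 6.38 CPM (SD, n = 3), and the log2 change was 0.67 ± 0.069 (SE, edgeR adjusted p = 4.03e-08). This corresponds to 1.59-fold, with a 95% confidence interval of 1.44 to 1.75. Of all genes tested, 95.02% had a lower or equal log2 fold change. Replicate 1 of the knockdown cultures was the highest, and without it the log2 fold change was 0.58. GLI2 stayed called under all 15 alternative analyses.

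GLI3, which acts mostly as a repressor in the absence of ligand, lies on chromosome 7 from 41960949 to 42264100 (ENSG00000106571.15). It was at 211.9, 212.0 and 203.1 CPM in controls, against 256, 236 and 264 CPM after knockdown. The groups were clear of each other, although the difference was smaller than that of GLI2. GLI3 rose from 209 ± 5.14 to 252 ± 14.6 CPM (SD, n = 3), and the log2 change was 0.27 ± 0.048 (SE, edgeR adjusted p = 8.82e-05). The value lies close to the fold threshold, and GLI3 was no longer called without replicate 3 of the knockdown cultures, at 0.23.

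GLI1, a transcriptional target of the pathway as well as a factor of it, was near the limit of what these libraries could compare. It lies on chromosome 12 from 57459785 to 57472268 (ENSG00000111087.10). The control cultures had 47, 85 and 104 counts, or 1.65, 2.70 and 3.37 CPM. The knockdown cultures had 67, 102 and 100 counts, or 2.29, 2.89 and 3.03 CPM. The knockdown values all fell inside the range of the control values. The log2 change was 0.086 ± 0.22 (SE, edgeR adjusted p = 0.81). Its 95% confidence interval ran from -0.38 to 0.55, so that a change of the size seen in GLI3, in either direction, was not detectable at this depth. Without replicate 1 of the control cultures, the lowest library, the sign turned to -0.15.

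**Figure D1:**
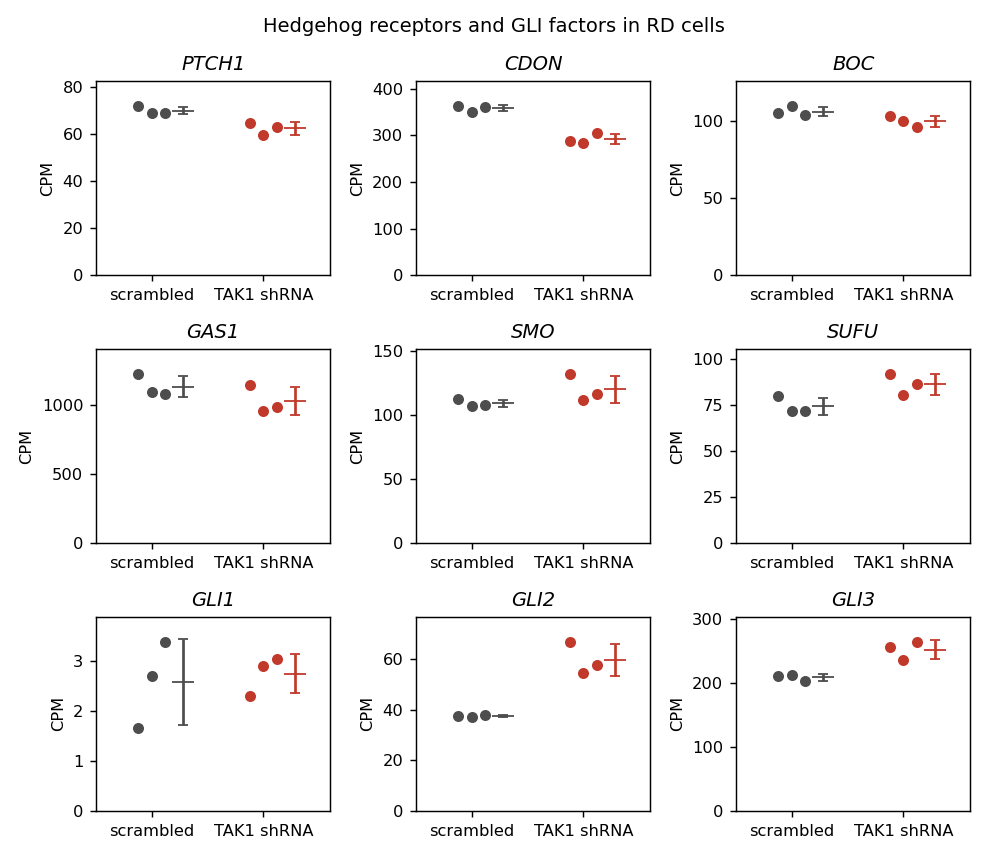
CPM of the 9 members in each library, with a vertical axis for each gene that starts at 0, points for the 3 cultures of a group (replicates 1 to 3 from left to right) and a bar for the mean with its SD. GLI2 and GLI3 lie higher and CDON lower in all 3 TAK1 shRNA cultures than in any control culture, and the GLI1 groups overlap.

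PTCH1, the ligand receptor and the other common readout of GLI activity, was slightly lower and did not reach the fold threshold. The gene (ENSG00000185920.19) occupies bases 95442980 to 95517057 of chromosome 9, minus strand. PTCH1 was at 71.6, 69.0 and 69.0 CPM in controls, against 64.6, 59.3 and 63.0 CPM after knockdown. All 3 knockdown cultures lay below all 3 controls. The means were 69.9 ± 1.54 and 62.3 ± 2.70 CPM (SD, n = 3), and the log2 change was -0.17 ± 0.056 (SE, edgeR adjusted p = 0.0239). The 95% confidence interval of -0.28 to -0.05 reaches the fold threshold. Over the 15 alternatives the adjusted p of PTCH1 ran from 0.00784 to 0.108. The promoter window of PTCH1 shown above is the only member window with the GLI motif. PTCH1 and GLI1, both known targets of GLI factors, thus had log2 fold changes of -0.17 and 0.086, next to 0.67 for GLI2.

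Of the co-receptors, CDON was lower and BOC and GAS1 were not called. CDON and BOC are related immunoglobulin superfamily proteins that also promote myogenic differentiation through cell contact, and GAS1 is a membrane-anchored Hedgehog-binding protein. CDON (ENSG00000064309.16) occupies bases 125955796 to 126063335 of chromosome 11, minus strand. It was at 362.4, 351 and 361.6 CPM in controls, against 288, 284 and 305 CPM after knockdown. No knockdown culture came near the control range. CDON fell from 358 ± 6.48 to 292 ± 11.3 CPM (SD, n = 3), and the log2 change was -0.29 ± 0.044 (SE, edgeR adjusted p = 1.05e-05), and with each culture left out in turn it stayed between -0.34 and -0.27. Scaling by library size alone brought it to -0.246, just under the fold threshold. In GENCODE 44, 14.2% of the exonic bases of CDON overlap VSIG10L2 on the opposite strand, and reads from there cannot be separated where strand was not used.

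BOC (ENSG00000144857.15, chromosome 3 from 113211003 to 113287459) was at 105.5, 109.8 and 104 CPM in controls, against 103, 100.6 and 96.3 CPM after knockdown. The lowest control and the highest knockdown culture were nearly level. The log2 fold change was -0.090 with a 95% confidence interval of -0.19 to 0.014 (edgeR adjusted p = 0.184). Genes on the opposite strand overlap 7.74% of the exonic bases of BOC, 4.11% of those of PTCH1 and 2.72% of those of SMO.

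GAS1 (ENSG00000180447.7) is a gene of 1 exon at bases 86944362 to 86947506 of chromosome 9, minus strand. It was at 1225, 1095 and 1083 CPM in controls, against 1147, 957 and 987 CPM after knockdown. Replicate 1 was the highest culture in both groups, and the groups overlapped. The log2 change was -0.14 ± 0.056 (SE, edgeR adjusted p = 0.0583).

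SMO, the seven-pass membrane protein that PTCH1 restrains, and SUFU, the cytoplasmic inhibitor of the GLI factors, both had higher means in TAK1 knockdown cells without being called. SMO (ENSG00000128602.11, chromosome 7 from 129188633 to 129213545) was at 111.9, 107 and 108 CPM in controls, against 132, 111.4 and 116 CPM after knockdown. The lowest knockdown culture lay just under the highest control. The log2 change was 0.14 ± 0.056 (SE, edgeR adjusted p = 0.0666), and dropping replicate 1 of the knockdown group left 0.064.

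SUFU (ENSG00000107882.12, chromosome 10 from 102503972 to 102633535) was at 79.8, 71.7 and 71.7 CPM in controls, against 91.8, 80.6 and 86.3 CPM after knockdown. The groups were separated by less than 1 CPM at their nearest values. The log2 change was 0.21 ± 0.059 (SE, edgeR adjusted p = 0.0066), under the fold threshold. SUFU passed that threshold without replicate 1 of the control cultures (0.27), without replicate 2 of the knockdown cultures (0.26) and with scaling by library size alone (0.26).

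**Figure D2:**
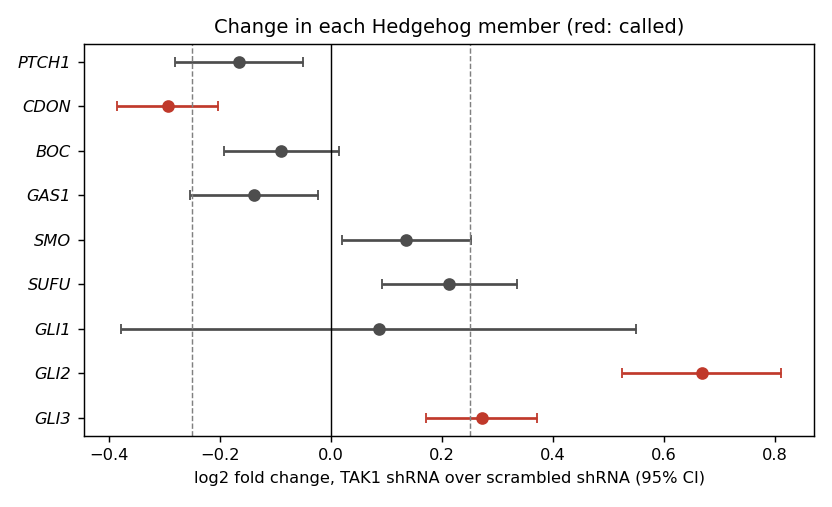
Log2 fold change of each member, TAK1 shRNA over scrambled shRNA, with bars for the 95% confidence interval and dashed lines at the fold threshold of 0.25 in either direction. The called genes are in red, GLI2 at 0.67, GLI3 at 0.27 and CDON at -0.29, and the interval of GLI1 is the widest of the 9.

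Ratios of raw counts within a library do not depend on how libraries are scaled, and 6 of them were computed, chosen after the values were seen. For each GLI3 count there were 0.176, 0.175 and 0.187 GLI2 counts in the control cultures and 0.260, 0.230 and 0.218 in the knockdown cultures. GLI2 thus gained on GLI3 in every knockdown culture. For each SMO count there were 0.640, 0.645 and 0.639 PTCH1 counts in the control cultures and 0.491, 0.533 and 0.542 in the knockdown cultures, so PTCH1 mRNA was lower relative to SMO mRNA. For each GLI3 count there were 1.72 ± 0.0632 CDON counts in control and 1.16 ± 0.0397 in knockdown cultures (SD, n = 3). SUFU counts per count of GLI2 and GLI3 together were 0.302 ± 0.0165 and 0.277 ± 0.00814, and CDON counts per BOC count were 3.37 ± 0.153 and 2.93 ± 0.211 (SD, n = 3). The groups were apart in all 5 of these ratios. The exact permutation test (two-sided) returned 0.1 for each, the lowest p that 3 cultures against 3 can reach. Because the ratios were picked from values already seen, neither the separation nor this p adds evidence to the changes of the single genes. GLI1 counts per PTCH1 count overlapped, at 0.037 ± 0.013 and 0.0441 ± 0.00745 (exact permutation p = 0.7, n = 3).

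To compare levels between genes, CPM was divided by the summed exon length of each gene in GENCODE 44, in kilobases. In control cells GAS1 had by far the highest level at 361 ± 24.95 CPM per kilobase (SD, n = 3), 15.7 times that of the next gene, SMO, at 22.9 ± 0.553. CDON followed at 17.98 ± 0.325, GLI3 at 15.1 ± 0.372, SUFU at 10.8 ± 0.678 and BOC at 10.3 ± 0.293 CPM per kilobase. GLI2 had 4.85 ± 0.0636, PTCH1 4.04 ± 0.0890 and GLI1 0.565 ± 0.190 CPM per kilobase. The ranges of neighbours in this order overlapped between SUFU and BOC and between no other pair. In knockdown cells the order was the same except that GLI3 stood above CDON, and 0 pairs of neighbours overlapped. GLI3 was thus the most abundant GLI mRNA and GLI1 the least. The order depends on which transcripts are counted. By the length of the canonical transcript alone, CDON rose above SMO, BOC above SUFU and, in control cells, PTCH1 above GLI2, while GAS1 stayed the highest (8.32 times CDON, the next gene, in control cells), GLI3 the highest GLI gene and GLI1 the lowest of the 9.

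**Figure D3:**
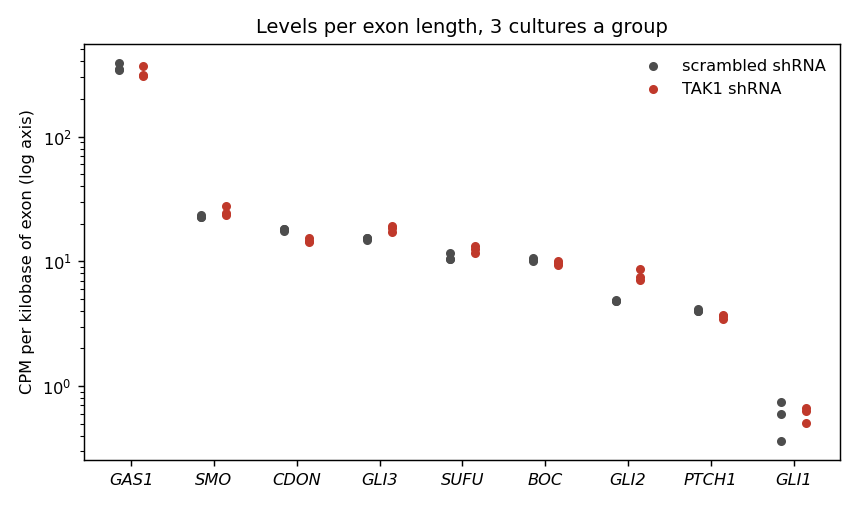
CPM per kilobase of exon on a log axis for the 9 members, ordered by their mean in control cells, with points for the 3 cultures of each group. GAS1 stands apart at 361 CPM per kilobase in control cells, GLI1 lies lowest at 0.565, and the other 7 lie between 4.04 and 22.9.

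For each called member the closest genes in the table were sought by the Euclidean distance of the centred log2 CPM over the 6 samples. Those nearest to GLI2 were PIK3C2B (distance 0.090) and PIP5K1C (0.098), with log2 fold changes of 0.72 and 0.62. BTBD9 (0.019) and VPS13B (0.042) were nearest to GLI3. VIM (0.021), the gene of the filament protein vimentin, was nearest to CDON, with a log2 fold change of -0.28. All of these distances rest on the same 6 libraries, in which the first principal component separated the groups.

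The Hedgehog ligands were barely detected in RD cells of either group. SHH had 1 count in 1 control library and 0 in the other 5. IHH had 0 to 5 counts and DHH 1 to 8 counts per library, and none of these 3 genes passed the filter on low counts. In a list of 17 genes for the ligands, their release and their capture at the cell surface, 12 were tested. Of these 12, 1 was called higher (8.33%, against 11.8% of all genes tested) and 1 lower (8.33%, against 11.3%). The 12 had a median log2 fold change of 0.0014. SULF1, a sulfatase that trims heparan sulfate, rose from 58.7 ± 1.86 to 84.1 ± 6.36 CPM (SD, n = 3), or 0.52 on the log2 scale (edgeR adjusted p = 1.89e-07). EXT1, which builds heparan sulfate chains, fell by 0.30 on the log2 scale, from 184 ± 8.03 to 149.6 ± 5.97 CPM (SD, n = 3). The ligand-release protein DISP1 had 10.04 ± 0.745 and 9.79 ± 0.928 CPM (SD, n = 3) and was not called.

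Among 7 other receptors and decoys 2 passed the filter, and 0 were called. HHIP, a decoy that binds ligand and a classical GLI target, had 0 counts in all 3 control libraries and 2, 1 and 0 counts in the knockdown libraries, which is too few to compare.

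The list of 51 regulators of SMO and GLI proteins, all tested, had a median log2 fold change of 0.057. It held 10 genes called higher (19.6%, against 11.8% of all genes tested) and 8 called lower (15.7%, against 11.3%). PRKAR1A, the type I regulatory subunit that holds protein kinase A inactive, showed the largest fall in the list. It was at 266, 275 and 274 CPM in controls, against 136, 129 and 139.7 CPM after knockdown. The knockdown values were close to 0.5 times the control values in every culture. The log2 change was -1.01 ± 0.047 (SE, edgeR adjusted p = 3.06e-14). Protein kinase A phosphorylates GLI2 and GLI3 and so promotes their processing. Its catalytic subunit genes PRKACA and PRKACB had log2 fold changes of -0.12 and -0.17 and were not called, and neither were GPR161, a ciliary receptor that raises cAMP (-0.072), and GSK3B (-0.11).

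Of the genes in this list that act with SMO at the cilium base, IQCE rose from 71.8 ± 4.02 to 134.5 ± 0.834 CPM and EVC from 35.8 ± 0.954 to 50.8 ± 1.92 CPM (SD, n = 3), log2 fold changes of 0.91 and 0.51. The other genes of this complex in the list, EVC2 and EFCAB7, had log2 fold changes of 0.24 and 0.092 and were not called. STK36, the human homologue of the fly kinase Fused, rose by 0.66, from 40.2 ± 1.53 to 63.7 ± 6.03 CPM (SD, n = 3). KIF7, the kinesin that scaffolds GLI proteins at the tip of the cilium, was at 21.3, 23.5 and 23.5 CPM in controls, against 17.7, 20.4 and 19.0 CPM after knockdown. It fell by 0.26 on the log2 scale, just past the fold threshold (edgeR adjusted p = 0.0161). KIF7 lost its call with upper-quartile normalization, with scaling by library size alone, and without control replicate 2, control replicate 3 or knockdown replicate 1. SAP18 and ZIC2, which bind SUFU and GLI proteins respectively, had log2 fold changes of -0.60 and -0.46.

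GLI proteins are processed and activated at the primary cilium, and a list of 48 genes for ciliary trafficking of Hedgehog proteins was therefore included. It held 24 genes called higher (50%, against 11.8% of all genes tested) and 1 called lower (2.08%, against 11.3%). The 1 called lower was KIF7, and the list had a median log2 fold change of 0.28. The list shares KIF7, IQCE and EFCAB7 with the regulators, and cilium genes were known from earlier results of these data to be higher, so this count is not independent evidence of that direction. IFT140, a subunit of the retrograde transport complex, rose from 26.9 ± 1.23 to 53.4 ± 1.93 CPM (SD, n = 3), or by 0.99 on the log2 scale. TCTN2, a transition zone gene, rose by 0.98 from a low level of 2.66 CPM.

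Genes listed as GLI targets moved in both directions. Of 50 listed, 35 were tested, with a median log2 fold change of -0.074. The calls were 7 higher (20.0%, against 11.8% of all genes tested) and 6 lower (17.1%, against 11.3%). Among those called, OSR2, HSD11B2 and TBX2 had the largest rises, at 0.58, 0.45 and 0.39. The largest falls called were those of the D-type cyclins CCND1, at -0.93, and CCND2, at -0.77, and of FOXL1, at -0.78. CCND2 fell from 412 ± 24.9 to 242 ± 9.33 CPM (SD, n = 3). FOXL1 held only 40 to 96 counts per library, and its control values of 1.65 to 3.11 CPM overlapped the knockdown values of 1.19 to 1.70 CPM. Most of these genes also answer to other pathways.

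**Figure D4:**
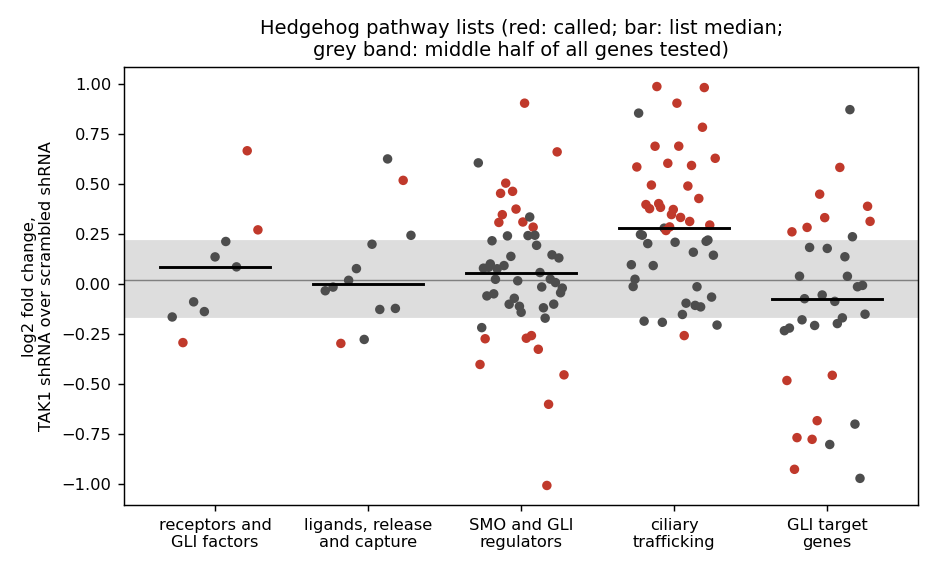
Log2 fold change, TAK1 shRNA over scrambled shRNA, of each tested gene in the 9 members and in 4 pathway lists, with called genes in red, a bar at each median and a grey band for the middle 50% of all genes tested. Of the lists plotted, ciliary trafficking has the highest median, 0.28 (the other receptors and decoys, with 2 genes tested and a median of 0.42, are not drawn), and the GLI target genes spread to both sides of 0.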

How the data were processed

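RNA from RD cells was sequenced for 3 cultures with scrambled shRNA and 3 with TAK1 shRNA, grouped by sample title. The authors deposited raw read counts per gene symbol. Per the methods and the submitters' processing notes, poly(A)-enriched libraries were base-called with CASAVA, low-quality reads were discarded and the rest were aligned with STAR to GRCh38. The counter, annotation and strand use are not given in the sources used here, nor is whether replicates were separate transductions, so p-values measure only the spread between these samples, which may be technical.

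Counts were tested with edgeR 4.0.16 in R 4.3.3 (quasi-likelihood, TMM normalization, default low-count filter) over 15935 genes, and CPM used the same scaling. The biological coefficient of variation was 5.67%. The SE of each log2 change was derived from its F statistic. No set test was run. As alternatives, DESeq2 1.42.0, limma 3.58.1 (voom), other normalizations, filters and fold thresholds, a replicate block and leaving out each sample were tried. The scripts were tested on simulated data. Positions and exon lengths came from GENCODE 44.

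The members and lists were chosen with earlier results of these data known. Named genes are the members, MAP3K7, SHH, IHH, DHH and HHIP, up to 3 called genes with the largest rise and 3 with the largest fall in each list, and the 2 nearest profiles of each called member. DISP1, PRKACA, PRKACB, GPR161, GSK3B, EVC2, EFCAB7 and the markers named were picked after their values were seen. Some genes that this rule names are not reported here.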

Additional observations from a re-analysis of the deposited data

How the results depend on the processing

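Of the log2 changes of single genes (the members and MAP3K7), GLI2 kept its call under all 15 alternatives, and few others changed call or sign (2 reversed, 4 weaker and 3 stronger of 150 values, with 141 unchanged in call and sign). These 150 values leave out the setting with no fold threshold. Under it PTCH1 was also called lower, and SUFU (edgeR adjusted p = 0.0066) passes as higher. GLI1 ran from -0.15 (without control replicate 1) to 0.33 with replicates left out, and was -0.0029 without knockdown replicate 3, so its direction is not set by these libraries. GLI3 ran from 0.23, where its call was lost, to 0.32, SUFU from 0.17 to 0.27, and CDON from -0.34 to -0.27. Scaling by library size alone moved the median of all genes from 0.018 to 0.066, gave 2376 genes higher and 1404 lower (62.9% of calls higher, against 51.0% in the main analysis), put SUFU at 0.26 and CDON at -0.246, and left 0 members, 0 ligand and capture genes, 5 regulators and 0 ciliary genes called lower and 2 ligand and capture genes higher. With upper-quartile normalization 2 ligand and capture genes were called higher and 0 ciliary genes lower, next to 2027 of all genes higher and 1662 lower. Without a filter 4 GLI targets were called higher, next to 1809 of all 29336 genes then tested. With at least 10 counts in every sample 1 other receptor or decoy was called higher, next to 1875 of 14529 genes. With no fold threshold 2734 of all genes, 2 members (PTCH1 and CDON), 2 ligand and capture genes and 3 ciliary genes were lower, and 2 ligand and capture genes higher. At a log2 threshold of 0.5, 735 genes were higher and 680 lower, with 1 member (GLI2), 3 regulators, 10 ciliary genes and 1 GLI target higher, and 0 members, 0 ligand and capture genes, 2 regulators and 0 ciliary genes lower (GLI3 at 0.27 and CDON at -0.29 fell below it). With each culture left out, 1 to 3 members were called higher, 1 to 2 ligand and capture genes higher and 1 to 2 lower, 0 to 1 decoys higher, 0 to 2 ciliary genes lower and 3 to 6 GLI targets higher. Over these fits 1582 to 1810 of all genes were called higher and 1675 to 1931 lower. By canonical transcript length, chosen after seeing the data, control levels in CPM per kilobase were 43.3 for CDON, 27.4 for SMO, 24.9 for GLI3, 23.3 for BOC, 14.8 for SUFU, 8.07 for PTCH1 and 5.25 for GLI2. DESeq2 called 1680 genes higher and 1809 lower, and limma voom 1818 and 1806. Same-numbered cultures deviated together only weakly (correlations of 0.037, 0.036 and 0.016, 5 of 6 cultures closest to their own number), so the numbers were not taken as pairs. The fit with the replicate block gave 1942 and 1848 genes and changed no member's call, with GLI2 at 0.66.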
